A study of Drosophila melanogaster with 6 samples.

Results

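The transcripts described here are those of 10 fly genes: Pdf, ITP, Tk, Crz, Lk, SIFa, Proc, Nplp1, Nplp2 and Nplp3. They were grouped as precursors of neuropeptides linked to the circadian clock, arousal and the modulation of behaviour and body functions. Of these, Nplp1, Nplp2 and Nplp3 are called neuropeptide-like, and synonyms of Nplp2 name immune-induced peptides of the blood. The 10 genes were chosen by name among 16641 genes with an ID, and all 10 were found. In 9 cases the ID was paired with the symbol in a table of gene names. The row for Nplp2 carries an ID that this table does not pair with a symbol, and it was matched because its exon and intron lengths, arm and strand equal those of an annotated Nplp2 transcript and of no other gene. RNA was sequenced from heads of male Drosophila melanogaster that were 3 days of age and kept at 18 C, with 3 libraries of Adar5G1 and 3 of w1118. The label of the Adar5G1 strain lists y and sc as well, and Adar5G1 is a mutation of Adar, the gene of the adenosine deaminase that edits adenosines to inosines in transcripts. The w1118 strain, which carries a mutated white gene (w), served as the wild type. Each genotype has 1 strain label, so the Adar mutation and the rest of the genetic background cannot be told apart, and the labels used here give no hour of dissection.

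Neuropeptides are cut from larger precursors in the secretory pathway, stored in dense-core vesicles and released to act mostly on G protein-coupled receptors. In the fly head many of them come from small groups of neurons and neurosecretory cells. A change in such a precursor transcript in whole heads can therefore involve very few cells. Nplp2 and Nplp3 were far more abundant than the other members, and which cells made them was not tested. In bulk samples, fewer cells of a type and less RNA per cell cannot be told apart. Pdf is the signal of the ventral lateral clock neurons and keeps the clock network in step, while other members act on stress, water balance, muscle, feeding, aggression and sleep.

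Library totals over all genes were 7189944 to 21639081 counts in Adar5G1 and 6872569 to 17709643 in w1118. Protein-coding genes held 63.9% to 76.5% of the counts in Adar5G1 libraries and 49.9% to 82.4% in w1118 libraries. Levels are given as CPM, each gene's count relative to its library's total, scaled by the trimmed mean of M-values (TMM), which corrects for such differences in composition. Adar had 0.369, 0.148 and 0.909 CPM in Adar5G1 replicates 1, 2 and 3, against 331.9, 340.4 and 280.9 CPM in w1118, and some of its exons overlap another gene on the same strand. The white gene (w) had 16.7, 13.7 and 19.7 CPM in Adar5G1, against 0.116, 0.111 and 0 CPM in w1118. No label tells whether replicates came from different flies or cultures, and the p-values therefore cover the spread among these 6 libraries, some or all of which may be technical. Of 19 neuron markers 17 were measured, and their summed level was 14812 to 16855 CPM in Adar5G1 and 14546 to 15874 CPM in w1118, with none at 0 in all libraries. Of these, 1 rose and 1 fell, and their median log2 fold change was -0.02. Of 7 midgut enzyme genes 6 were at 0 in every library. The other, the amylase gene Amy-p, named after its values were seen, rose, with 63, 38 and 153 counts in Adar5G1 and 0, 0 and 2 in w1118 (edgeR adjusted p = 0.000341), and it passed the filter through Adar5G1 only. Of 6 male reproductive tract markers the summed level was at most 0.369 CPM in Adar5G1 and at most 0.432 CPM in w1118, and 2 had no count in any library. Of 8 photoreceptor markers 2 fell, and their summed level was 18999 to 22417 CPM in Adar5G1 and 24155 to 26183 CPM in w1118. Of 10 glia markers 2 rose and 1 fell, and of 5 muscle markers measured 2 fell.

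Of the 10 precursor transcripts 5 rose in Adar5G1 and 0 fell at an adjusted p of 0.05 (edgeR quasi-likelihood test, Benjamini-Hochberg adjustment over all 10201 genes tested). The rises were those of Nplp2, Crz, Nplp3, Proc and Tk. Over all genes tested 8.82% rose and 5.13% fell, which are 900 and 523 genes. These numbers were 812 and 764 with upper-quartile scaling, under which 3 members rose, and 582 and 209 with total counts as the scaling, under which 2 members rose. At an unadjusted p under 0.05 (edgeR), 5 members were higher and 1, Nplp1, was lower. Of the 10201 genes tested, 1543 were higher and 1152 lower by that measure. No member was lower past the threshold with DESeq2 or limma-voom either. The CPM of the groups did not overlap for 6 of the 10, against 31.5% of all genes tested. The median log2 fold change was 0.45 over the members and -0.00031 over all genes tested. All 10 lay above the count filter in each of the 6 libraries, so none was tested through 1 group alone. With 3 libraries against 3, an exact two-sided permutation test cannot go below p = 0.1, and it gave that value for the 6 genes whose groups did not overlap. Without Adar5G1 replicate 1 or 2, or without w1118 replicate 1 or 3, 2 members rose in each case.

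**Figure D1:**
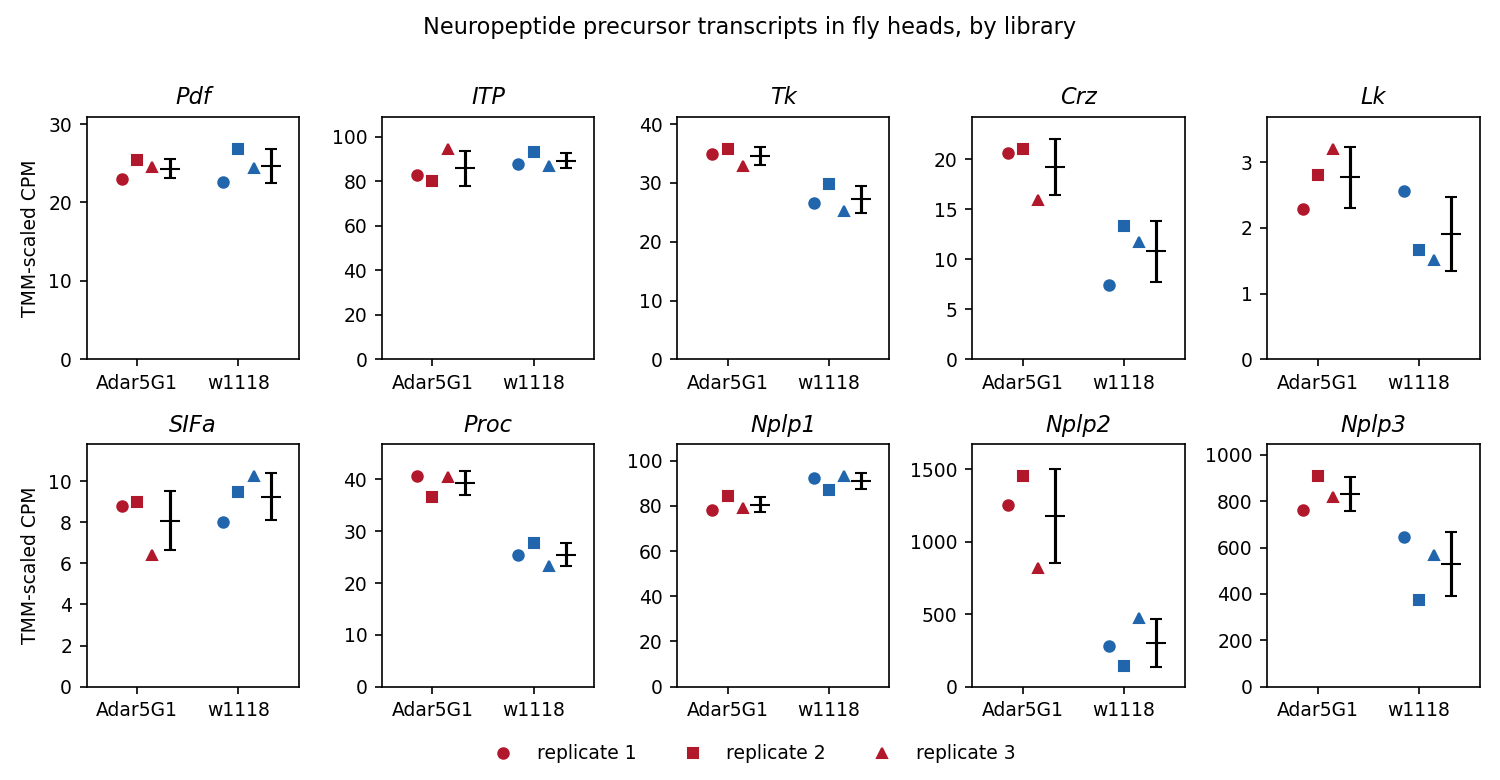
Level of each precursor transcript in TMM-scaled CPM (vertical axes, from 0) in the 3 Adar5G1 libraries (red, left) and the 3 w1118 libraries (blue, right). Symbols mark the replicate and black bars the mean ± SD. Nplp2 shows the widest gap, with 822.1 to 1455 CPM in Adar5G1 and 143.2 to 473.0 CPM in w1118, while the Pdf points lie at the same height in both.

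Per kilobase of exon, the scale on which genes can be compared with each other, the members covered a wide range. In Adar5G1, Nplp2 was highest at 2605 CPM per kilobase, followed by Nplp3 at 1543, and Pdf came next at 35.7. In w1118, Nplp3 came first at 983.4 CPM per kilobase and Nplp2 next at 660.7, and the libraries of these neighbours overlapped. Lk was lowest in both, at 4.42 CPM per kilobase in Adar5G1 and 3.05 in w1118, and did not overlap the next gene up in either. Between these ends the order was Pdf, Nplp1, Crz, Tk, Proc, ITP and SIFa in Adar5G1, where Nplp1 overlapped Crz, Proc overlapped ITP, and ITP overlapped SIFa. It was Pdf, Nplp1, ITP, SIFa, Tk, Crz and Proc in w1118, where only Nplp1 and ITP were neighbours without overlap. By their means, Crz and Tk stood ahead of ITP and SIFa in Adar5G1 and behind them in w1118. In w1118 the libraries of these genes overlapped, so their order there is not resolved.

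**Figure D2:**
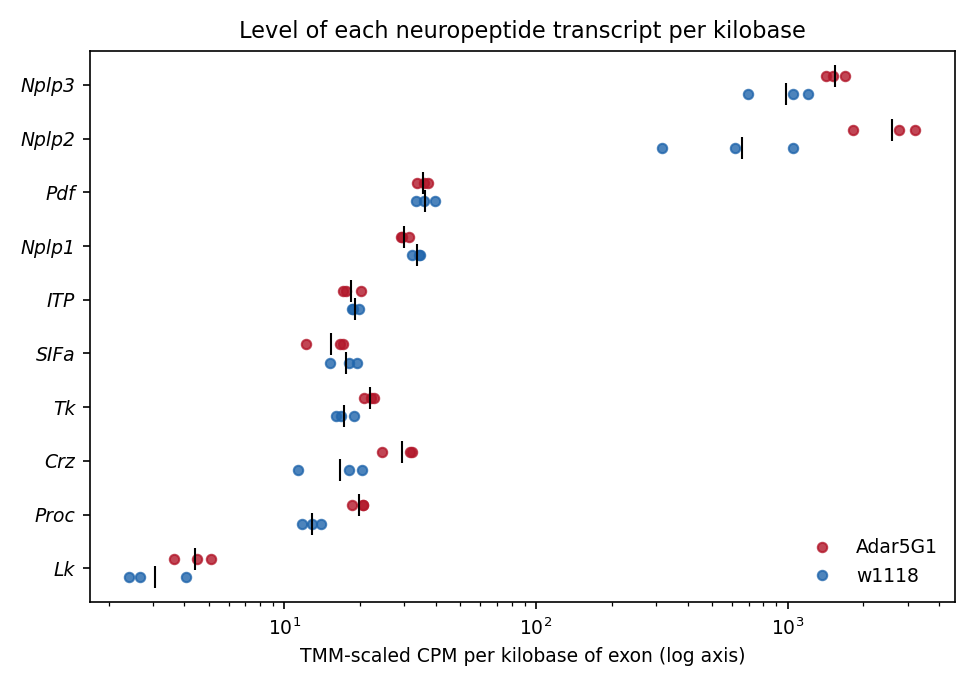
Level of each precursor transcript in TMM-scaled CPM per kilobase of exon (horizontal log axis) in Adar5G1 (red, upper row of each gene) and w1118 (blue, lower row), 1 point per library and a black tick at the mean. Nplp2 and Nplp3 lie far above the other members, and Lk lies lowest.

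Among the members, Pdf and ITP, both made in clock neurons, did not pass the test. Pdf (FBgn0023178, 3R:22281184-22281863 in dm3, minus strand) had 22.96, 25.4 and 24.5 CPM in Adar5G1 replicates 1, 2 and 3, against 22.6, 26.9 and 24.4 CPM in w1118. The groups overlapped, with a log2 fold change of -0.03 (SE 0.10, 95% interval -0.25 to 0.19, edgeR adjusted p = 0.894). ITP (FBgn0035023, 2R:20424944-20446484, plus strand) encodes ion transport peptide, an antidiuretic hormone also made in some clock neurons, and its splice forms share 1 row here. It had 82.6, 80.1 and 94.7 CPM in Adar5G1, against 87.9, 93.0 and 86.8 CPM in w1118. These groups overlapped as well (log2 fold change -0.05, SE 0.08, 95% interval -0.24 to 0.13, edgeR adjusted p = 0.747). Both intervals leave out a change of 1.5-fold or more in either direction on the scale of this fit.

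The receptor of Pdf changed although its ligand did not pass the test. Pdfr (FBgn0260753, X:2446239-2472673, plus strand), a G protein-coupled receptor of clock and other neurons, had 58.1, 58.3 and 60.2 CPM in Adar5G1 and 38.9, 41.9 and 45.2 CPM in w1118. Every Adar5G1 library was above every w1118 library. On the log2 scale Adar5G1 was higher by 0.49 (SE 0.08, edgeR adjusted p = 0.00483), and the call was lost only with total counts as the scaling (adjusted p = 0.471) among 19 alternatives. Pdfr lies on X, as does Adar (X:1667758-1682098), while the 10 precursor genes lie on 2L, 2R, 3L and 3R. The receptor gene Proc-R and the clock gene per also lie on X, and neither was called. Their log2 fold changes were -0.19 and -0.08 (edgeR adjusted p = 0.243 and 0.519). Other genes on X were called: the neuron marker Appl and w, the gene mutated in w1118. Their log2 fold changes were -0.57 and 7.51 (edgeR adjusted p = 0.00151 and 1.04e-05). The neuron markers elav and futsch, also on X, were not called. Apart from Proc-R, these genes and per were named after their values were seen. Whether position on X plays a part was not tested. The difference between the fold changes of Pdf and Pdfr was not tested.

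Of 8 core clock genes 1 rose and 2 fell, where the shares of all genes tested were 8.82% and 5.13%. The hour of dissection is not given for either group. The rise was that of vri, a repressor of Clk, with 373.4, 351.3 and 363.2 CPM in Adar5G1 and 257.8, 222.8 and 280.5 CPM in w1118 (1.43-fold, edgeR adjusted p = 0.00743). The falls were those of cyc, the partner of Clk, with 19.9 ± 0.343 CPM in Adar5G1 and 27.2 ± 1.62 CPM in w1118 (SD, n = 3 each, edgeR adjusted p = 0.0111), and of tim, the partner of per, with 608.4 ± 45.0 against 808.8 ± 61.1 CPM (edgeR adjusted p = 0.0188). Among the fits that leave out 1 library, the call of cyc was lost without w1118 replicate 2 (adjusted p = 0.052). That of tim was lost without Adar5G1 replicate 1 or 2 or w1118 replicate 1 or 2 (adjusted p = 0.0528, 0.0585, 0.0657 and 0.0849), so that 0 clock genes fell without w1118 replicate 2 and 1 fell without each of the other 3. Without w1118 replicate 3, 2 clock genes rose.

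Among the peptides of arousal, stress and water balance, the tachykinin and corazonin precursors rose. Tk (FBgn0037976, 3R:7819897-7831155, minus strand) encodes several tachykinins, which act in olfaction, aggression and metabolism. It had 34.8, 35.8 and 32.8 CPM in Adar5G1 and 26.6, 29.8 and 25.3 CPM in w1118. The groups did not overlap, but the gap was narrow: the lowest Adar5G1 library was 1.10 times the highest w1118 library. In log2 units Adar5G1 was 0.33 above w1118 (SE 0.09, edgeR adjusted p = 0.0473), or 1.26-fold higher. The call was lost in 14 of 19 alternatives, among them DESeq2 (adjusted p = 0.085) and leaving out Adar5G1 replicate 1 or 2 or w1118 replicate 1 or 3 (adjusted p = 0.141, 0.121, 0.164 and 0.125), while the direction held in all 19 with a log2 fold change of 0.27 to 0.41.

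Crz (FBgn0013767, 3R:10140576-10141438, plus strand) encodes corazonin, a peptide of neurosecretory cells that is related to gonadotropin-releasing hormone and acts in stress and metabolism. It had 20.6, 21.1 and 15.98 CPM in Adar5G1 and 7.43, 13.3 and 11.8 CPM in w1118. Adar5G1 replicate 3 was the lowest of its group and w1118 replicate 1 the lowest of all 6, and the groups did not overlap. The difference was 0.79 on the log2 scale (SE 0.21, edgeR adjusted p = 0.0389), or 1.73-fold. The call was lost in 8 of 19 alternatives, among them leaving out Adar5G1 replicate 1 or 2 or w1118 replicate 1 or 3 (adjusted p = 0.121, 0.101, 0.0695 and 0.0707), and without w1118 replicate 1 the log2 fold change was 0.58.

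Lk and SIFa did not pass the test. Lk (FBgn0028418, 3L:14553239-14553864, minus strand) encodes leucokinin, which acts on renal tubules and on feeding and sleep circuits. It was the least abundant member, with 31, 19 and 67 counts in Adar5G1 and 22, 30 and 14 in w1118, or 2.29, 2.80 and 3.21 CPM against 2.55, 1.66 and 1.51 CPM. The groups overlapped through w1118 replicate 1, and the 95% interval of the log2 fold change, -0.05 to 1.20, is wide (edgeR adjusted p = 0.224). SIFa (FBgn0053527, 2R:20465089-20465666, minus strand) is made by a few neurons of the pars intercerebralis with very wide arbors and acts on courtship, feeding and sleep. It had 8.79, 8.999 and 6.41 CPM in Adar5G1 and 8.01, 9.48 and 10.3 CPM in w1118 (log2 fold change -0.23, SE 0.17, edgeR adjusted p = 0.453). Adar5G1 replicate 3 was the lowest library, and without both libraries numbered 3 the log2 fold change was 0.0016.

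The other receptors showed no change past the threshold. TkR99D, a receptor for tachykinins, had 14.9, 18.9 and 19.1 CPM in Adar5G1 and 11.8, 13.7 and 13.2 CPM in w1118, without overlap (log2 fold change 0.44, SE 0.13, edgeR adjusted p = 0.0591), and passed only without Adar5G1 replicate 1 (adjusted p = 0.0304). TkR86C, the receptor for natalisin and for some tachykinins, had a log2 fold change of 0.17 and SIFaR 0.26. The corazonin receptor gene CrzR had 16.9 ± 0.838 CPM in Adar5G1 and 19.1 ± 0.460 CPM in w1118, a log2 fold change of -0.17 (edgeR adjusted p = 0.285). The leucokinin receptor gene Lkr had 0.17 (SE 0.33) and Gyc76C, a receptor guanylyl cyclase reported to respond to an Nplp1 peptide, -0.07, though some exons of Gyc76C overlap another gene on the same strand. In all, 1 of 8 receptors rose and 0 fell, near the shares of all genes tested, 8.82% and 5.13%. At an unadjusted p under 0.05, 2 were higher and 0 lower, and DESeq2 and limma-voom likewise found 0 lower. The receptors other than Pdfr were named after their values were seen.

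Proc had the smallest p-value of the members. Proc (FBgn0045038, 2L:7864642-7871432, minus strand) encodes proctolin, a short peptide of motor and other neurons that strengthens muscle contraction. It had 40.7, 36.6 and 40.5 CPM in Adar5G1 and 25.4, 27.7 and 23.2 CPM in w1118, so that the lowest Adar5G1 library was 1.32 times the highest w1118 library. Adar5G1 was higher by 0.63 on the log2 scale (SE 0.09, edgeR adjusted p = 0.00352), or 1.54-fold. This value ran from 0.54 to 0.69 over 19 alternatives, and the call was lost in 1 of them, total counts as the scaling (adjusted p = 0.211). The proctolin receptor gene Proc-R had 21.9, 20.8 and 24.2 CPM in Adar5G1 and 26.8, 25.5 and 24.5 CPM in w1118 (log2 fold change -0.19, SE 0.09, edgeR adjusted p = 0.243). Its groups did not overlap, and the difference from the change of its ligand was not tested.

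Among 7897 other tested genes that averaged 5 CPM or more, the 3 whose log2 CPM over the 6 libraries were most like those of Proc were Tl, Meltrin and CG32694, with Pearson correlations of 0.995, 0.992 and 0.991. These points share the difference between the genotypes, and 119 genes had a correlation over 0.95. Tl had 134.5, 130.3 and 135.0 CPM in Adar5G1 and 106.8, 111.6 and 105.3 CPM in w1118.

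Of the 3 genes called neuropeptide-like precursors, Nplp2 and Nplp3 rose and Nplp1 did not pass the test. Nplp1 (FBgn0035092, 2R:20919900-20927900, plus strand) is cut into several peptides of brain and nerve cord neurons. It had 78.3, 84.4 and 78.9 CPM in Adar5G1 and 92.4, 86.8 and 93.3 CPM in w1118, the only member whose groups did not overlap with Adar5G1 below. On the log2 scale this was -0.17 (SE 0.07, edgeR adjusted p = 0.145). Its spread was narrow in both groups, with a coefficient of variation of 4.19% in Adar5G1 and 3.83% in w1118.

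Nplp2 (FBgn0040813, 3L:13349634-13350323, plus strand) had the largest fold change of the 10. It was named from a peptide found in the brain, and its synonyms in the RefSeq gene table include NEF and names given to immune-induced peptides of the hemolymph, the fly's blood. It had 1255, 1455 and 822.1 CPM in Adar5G1 and 279.7, 143.2 and 473.0 CPM in w1118. The lowest Adar5G1 library was still 1.74 times the highest w1118 library, although libraries differed up to 1.77-fold within Adar5G1 and 3.30-fold within w1118. Its log2 fold change was 1.98 (SE 0.40, 95% interval 1.07 to 2.89, edgeR adjusted p = 0.0124), or 3.95-fold. It ran from 1.64 to 2.68 over 19 alternatives, and the call was lost in 4 of them, among them leaving out w1118 replicate 1 (adjusted p = 0.0625) and robust dispersion (adjusted p = 0.0871). The value of 2.68 came from the fit without both libraries numbered 3.

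Markers of the fat body, the fly's liver-like tissue that lines the head capsule, moved in the same direction as Nplp2. Of 6 listed, 5 were measured, 4 rose and 0 fell, and none was at 0 in all libraries. Their summed level was 5565, 5317 and 4424 CPM in Adar5G1 and 2707, 2361 and 3789 CPM in w1118, and apolpp, the lipid carrier precursor, made up most of it. Adar5G1 replicate 3 was the lowest and w1118 replicate 3 the highest of their groups, as for Nplp2. This order was not particular to the fat body, since the summed hemocyte, photoreceptor and glia markers showed it too. Within Adar5G1, Nplp2 was highest in replicate 2 and the fat body sum in replicate 1. The coagulation gene fon had 197.9, 187.7 and 132.5 CPM in Adar5G1 and 24.6, 19.5 and 35.6 CPM in w1118, and AkhR, the receptor for adipokinetic hormone, had 50.0, 52.2 and 37.4 CPM in Adar5G1 against 8.24, 7.54 and 11.3 CPM in w1118. These markers were named after their values were seen. Without Adar5G1 replicate 2 or w1118 replicate 1, 2 of the markers rose. Hemocyte markers, of which 9 of 10 were tested, had 0 rises and 0 falls with edgeR, 2 lower at an unadjusted p under 0.05, 1 lower with DESeq2 and 2 lower without w1118 replicate 2. Their summed level was 382.2, 305.8 and 281.5 CPM in Adar5G1 and 424.1, 308.2 and 485.5 CPM in w1118, with none at 0 in all libraries. The part of fat body or blood cell RNA in the rise of Nplp2 was not tested.

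**Figure D3:**
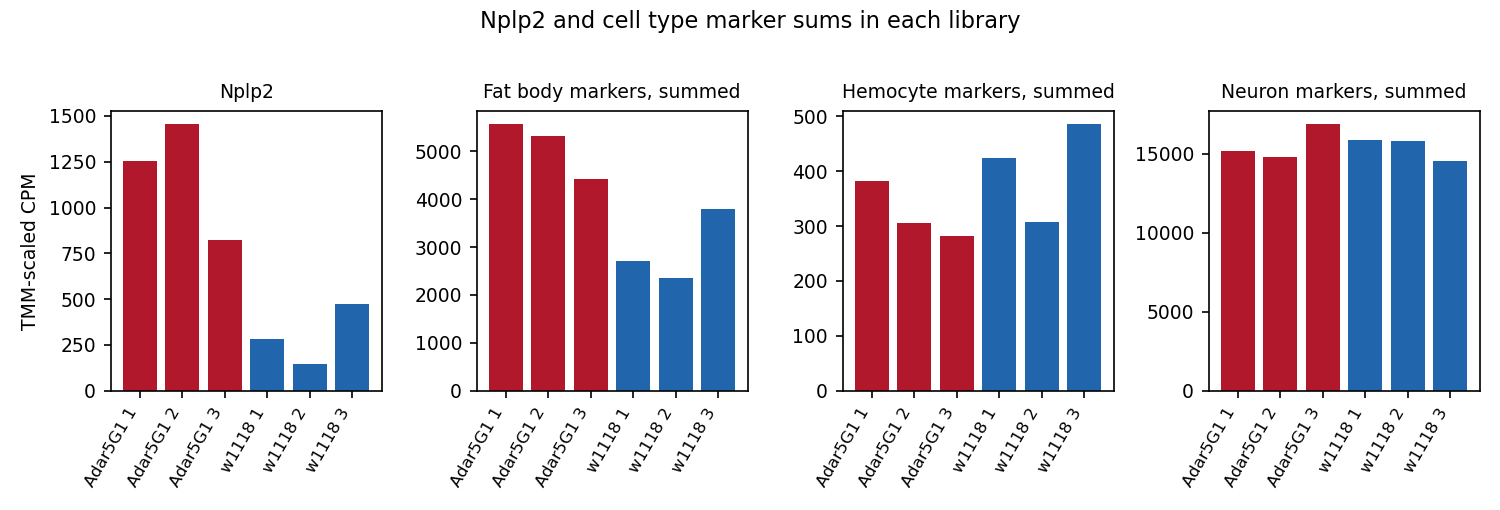
Nplp2 and the summed fat body, hemocyte and neuron markers in TMM-scaled CPM (vertical axes, from 0), 1 bar per library, Adar5G1 in red and w1118 in blue. Fat body markers ran from 4424 to 5565 CPM in Adar5G1 and from 2361 to 3789 CPM in w1118, and the neuron markers overlapped between the groups.

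Nplp3 (FBgn0042201, 3L:16311124-16311790, plus strand), whose peptide was also first found in the nervous system, had 763.2, 909.5 and 817.8 CPM in Adar5G1 and 646.9, 374.3 and 566.0 CPM in w1118. The groups did not overlap, and w1118 replicate 2 was lowest, as it was for Nplp2. Which cells of the head made Nplp3 was not tested. The log2 difference was 0.65 (SE 0.18, edgeR adjusted p = 0.0496), or 1.57-fold, just within the threshold. The call was lost in 14 of 19 alternatives, among them leaving out Adar5G1 replicate 1, 2 or 3 (adjusted p = 0.087, 0.133 and 0.0712) or w1118 replicate 2 or 3 (adjusted p = 0.0589 and 0.0815), and the log2 fold change ran from 0.45 to 0.81.

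**Figure D4:**
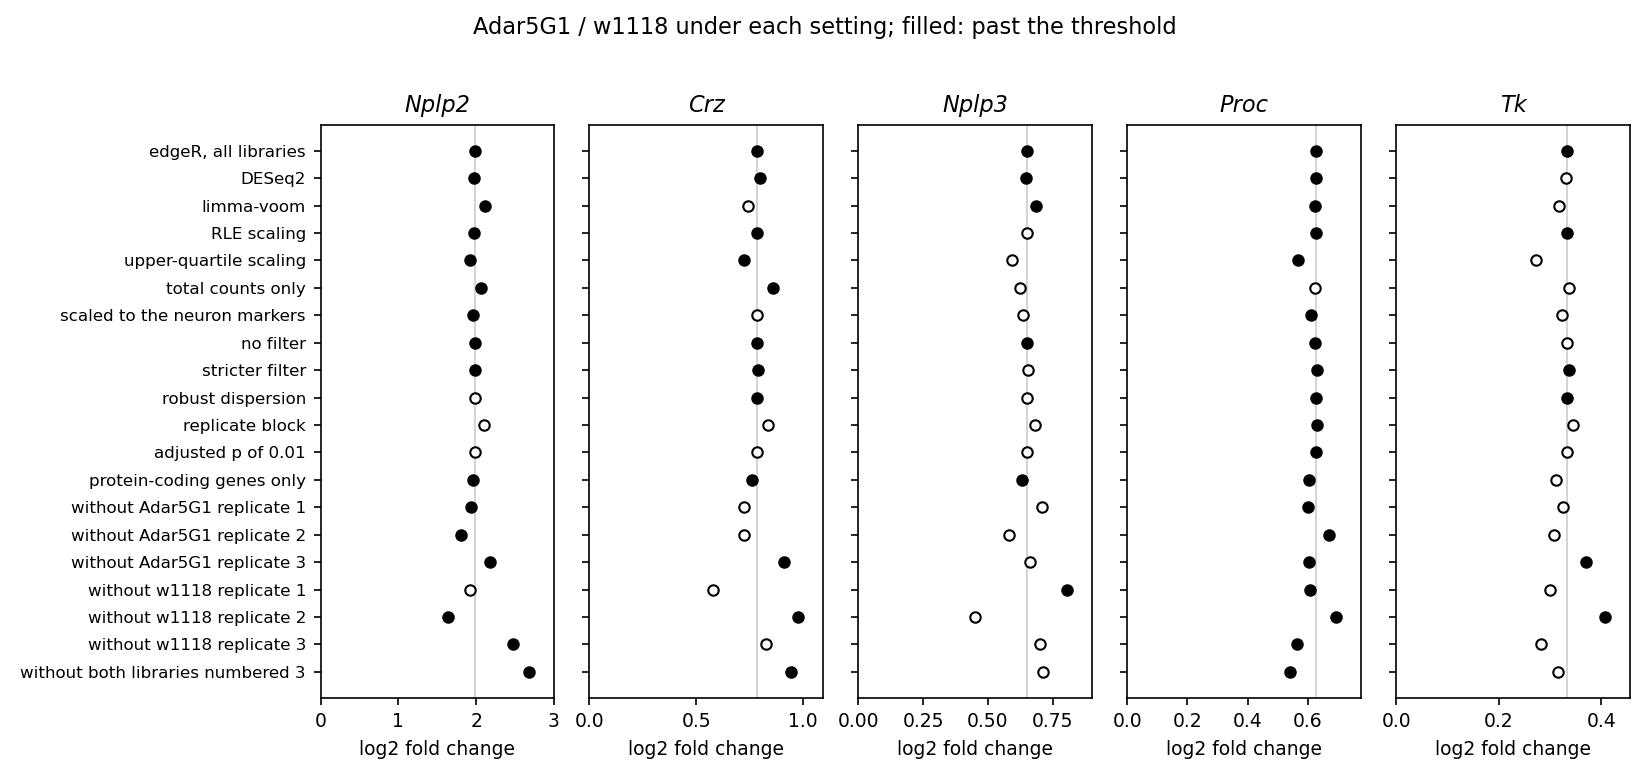
Log2 fold change of Adar5G1 over w1118 (horizontal axes, from 0) for the 5 members that rose, under each setting (rows), filled where the threshold was passed and open where it was not. The grey line marks the value with edgeR and all libraries, and all points lie to the right of 0.

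The machinery shared by these precursors showed no change past the threshold. Of 13 listed genes of peptide processing and dense-core vesicles, 11 were measured and 0 rose or fell with edgeR, with 1 at an unadjusted p under 0.05 (higher), and 1 rose with DESeq2 and with limma-voom. The list holds dimm, the factor that sets the neurosecretory state, the prohormone convertase gene amon and its helper 7B2, the carboxypeptidase gene svr, and the amidating enzyme genes Phm and Pal2. Their log2 fold changes were 0.37, -0.11, -0.10, 0.02, 0.02 and 0.02. The most abundant, IA-2, a membrane protein of dense-core vesicles, had 4153, 4133 and 4663 CPM in Adar5G1 and 3556, 3774 and 3445 CPM in w1118 (log2 fold change 0.27, SE 0.11, edgeR adjusted p = 0.185). IA-2 was the 1 gene called by DESeq2 (adjusted p = 0.0433) and limma-voom (adjusted p = 0.0451). The genes besides IA-2 were named after their values were seen.

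Among 32 other neuropeptide and peptide hormone genes, 25 were tested, 7 rose, 3 fell and 15 did not pass. The groups did not overlap for 13 of the 25, and their median log2 fold change was 0.14. Over all genes tested 8.82% rose and 5.13% fell, and the groups did not overlap for 31.5%. CNMa had 9.75, 12.4 and 8.28 CPM in Adar5G1 and 0.812, 0.942 and 1.83 CPM in w1118. The allatostatin gene AstA had 25.6, 24.5 and 24.9 CPM in Adar5G1 and 17.8, 18.2 and 16.5 CPM in w1118. The eclosion hormone gene Eh had 149 counts in all in Adar5G1 and 0 in w1118, at least 43.3-fold higher against a floor of 3 counts over the group, and it passed the filter through Adar5G1 only. The falls were those of Ilp3, an insulin-like peptide gene (2.32-fold lower), Capa (1.52-fold lower) and Akh, the adipokinetic hormone gene, with 9.97, 10.2 and 17.3 CPM in Adar5G1 and 23.3, 35.1 and 27.5 CPM in w1118 (2.26-fold lower). Without w1118 replicate 1, 3 of these genes rose and 3 fell.

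**Figure D5:**
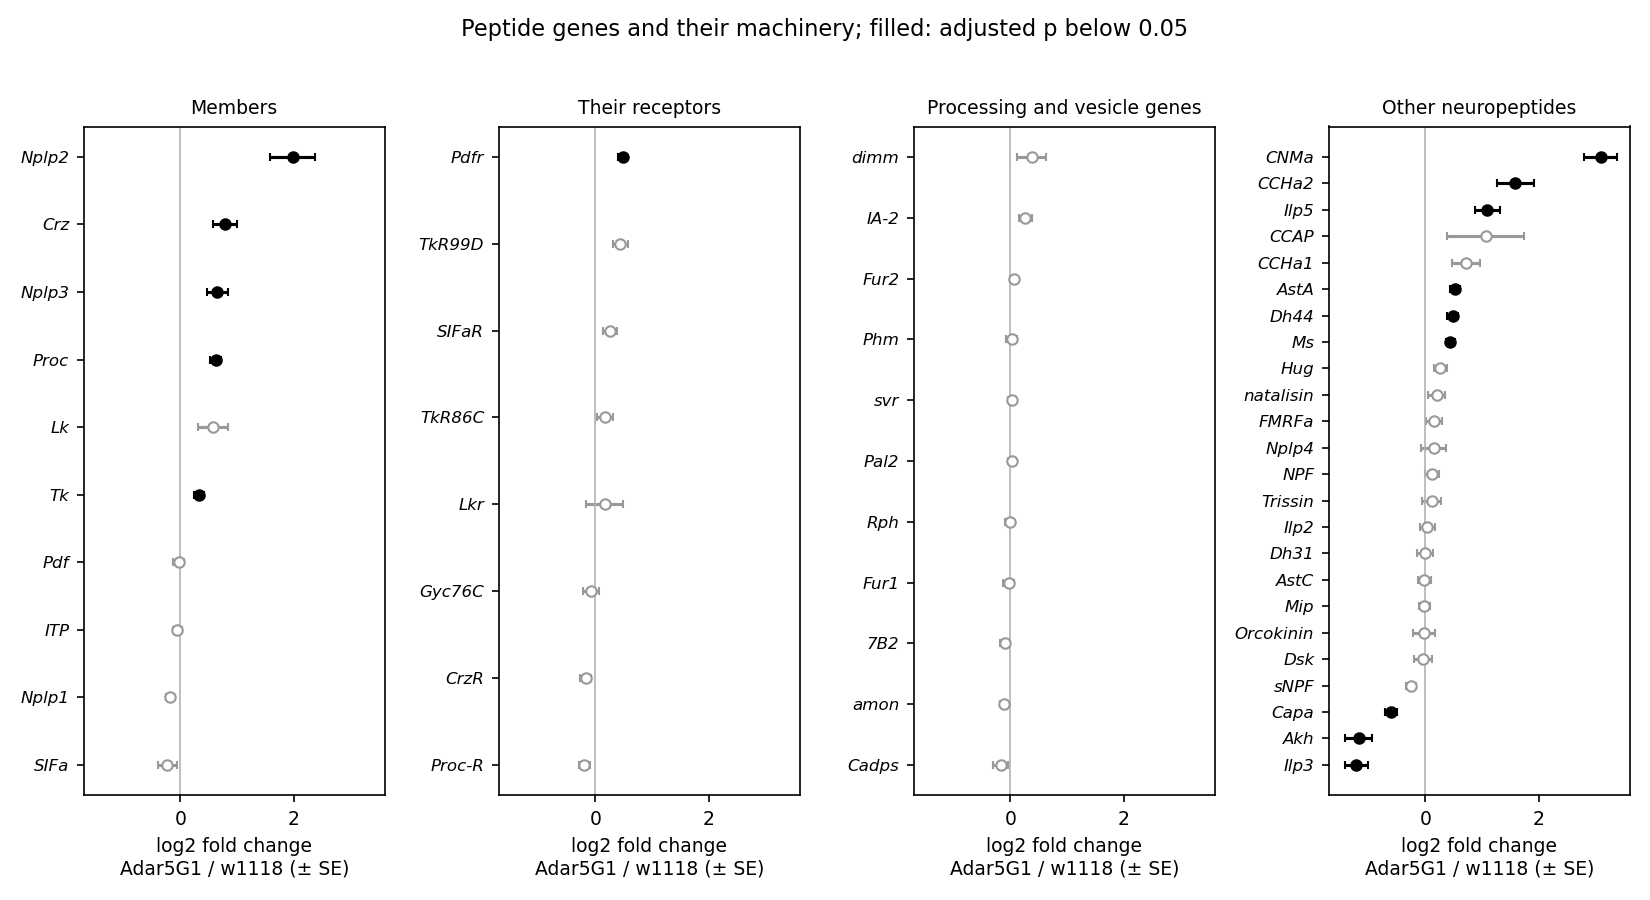
Log2 fold change of Adar5G1 over w1118 (horizontal axes, ± SE) for the members, their receptors, the processing and vesicle genes and the other neuropeptide genes, filled where the adjusted p was below 0.05. Eh is not drawn, since it had 0 counts in w1118. Filled points number 5 of 10 members, 1 of 8 receptors, 0 of 11 processing and vesicle genes and 9 of the 24 other neuropeptide genes drawn.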

How the data were processed

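The authors deposited raw fragment counts per gene in a table for each library. These counts came from featureCounts 1.4.5-p1, per the file headers, run on read pairs as reverse-stranded, by exon and gene of FlyBase annotation 5.53, with a fragment counted for every gene it overlapped. The submitters' processing notes name TopHat and the builds dm3 and BDGP5. Per the labels' protocols ribosomal RNA was depleted, while the molecule label reads polyA RNA. The 1 row without a gene ID (0.369% to 0.633% of counts) was left out. Coordinates are those of the files. Biotypes came from a BDGP6 annotation by ID.

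The test was edgeR 4.0.16 (R 4.3.3) with filterByExpr (minimum count 10), TMM scaling and quasi-likelihood fits that hold genotype and no other term. Standard errors are the log2 fold change over the square root of F, and 95% intervals use the test's degrees of freedom. The alternatives were DESeq2 1.42.0, limma-voom (limma 3.58.1), other scalings, filters and thresholds, a replicate block, protein-coding genes only, and leaving out libraries. Within a group the lowest chi-square statistic between libraries was 30.6 for each degree of freedom, over all genes and with ribosomal RNA rows included. Taken as a whole, no 2 libraries thus agreed within sampling noise. The statistic does not give the spread of any single gene. Of 147 listed names, 137 were matched by ID, 4 by exon structure and 6 were not matched.

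Members and lists were chosen with earlier results of these data known. Named genes are all members, Adar, up to 3 called genes per direction and list by p-value, the most abundant gene where none was called, and the 3 genes most like the member with the smallest p. Others are said to be named after their values were seen.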

Additional observations from a re-analysis of the deposited data

How the results depend on the processing

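With edgeR and all libraries 5 members rose. The count was 4 with DESeq2, RLE scaling, no filter, the stricter filter and protein-coding genes, 3 with limma-voom, upper-quartile scaling, robust dispersion and without both libraries numbered 3, 2 with total counts and scaling to the neuron markers, 1 with the replicate block and at an adjusted p of 0.01, and 2 to 4 leaving out 1 library. In every setting 0 members fell. Where a count or sign changed, the cause was not tested. Lk, with 14 to 67 counts a library, had the fewest counts of the members. The replicate numbers gave no sign of pairing the libraries. Deviations of libraries with the same number correlated at 0.112, -0.182 and -0.287, and not every library correlated best with its own number. So few libraries cannot tell whether those with the same number shared a batch. The replicate block gave 484 genes higher and 278 lower, an adjusted p of 0.01 gave 456 and 248, and scaling to the neuron markers gave 608 and 389, and total counts 582 and 209, against 900 and 523. Leaving out 1 library gave 545 to 1024 and 331 to 515.

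Of receptors, 0 rose with total counts and 1 to 2 leaving out 1 library. Of processing and vesicle genes, 1 rose with DESeq2 and limma-voom and 1 fell without both libraries numbered 3. Of the other neuropeptide genes, 4 rose with total counts, the replicate block and an adjusted p of 0.01, and 3 to 8 rose and 3 to 4 fell leaving out 1 library. Of clock genes, 0 rose with total counts, 2 without both libraries numbered 3 and 1 to 2 leaving out 1 library, and 0 fell with total counts, the replicate block and an adjusted p of 0.01 and 0 to 2 leaving out 1 library.

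Of neuron markers, 0 rose with upper-quartile scaling, total counts, the replicate block and an adjusted p of 0.01 and 0 to 1 leaving out 1 library, and 0 fell with total counts and 4 without both libraries numbered 3. Of glia markers, 1 rose with DESeq2, upper-quartile scaling, total counts and no filter, 0 with scaling to the neuron markers, the replicate block and an adjusted p of 0.01, and 0 fell with total counts, an adjusted p of 0.01 and without both libraries numbered 3, with 0 to 2 in either direction leaving out 1 library. Of fat body markers, 2 rose with the replicate block and an adjusted p of 0.01 and 2 to 4 leaving out 1 library. Of hemocyte markers, 1 fell with DESeq2, upper-quartile scaling and no filter, 2 with total counts and 0 to 2 leaving out 1 library. Of photoreceptor markers, 5 fell with DESeq2 and protein-coding genes, 4 with limma-voom and without both libraries numbered 3, 1 with total counts, scaling to the neuron markers, the replicate block and an adjusted p of 0.01, and 1 to 2 leaving out 1 library. Of muscle markers, 1 fell with scaling to the neuron markers, the replicate block and without both libraries numbered 3, 0 at an adjusted p of 0.01 and 0 to 2 leaving out 1 library. Of midgut markers, 0 rose with the stricter filter, which left Amy-p out.

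The sign turned, with no call either way, for Pdf (log2 fold change -0.10 to 0.0402 leaving out 1 library, above 0 without Adar5G1 replicate 1 or w1118 replicate 2), for SIFa (0.0016 without both libraries numbered 3) and for Lkr (-0.30 without both libraries numbered 3, and -0.0842 to 0.35 leaving out 1 library, below 0 without Adar5G1 replicate 3 or w1118 replicate 3).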
